A study of Homo sapiens with 6 samples.

Results

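The genes described here are *DUSP1*, a phosphatase that switches off MAP kinases, and 9 further genes of the immediate-early response, namely *DUSP6*, *FOS*, *FOSB*, *FOSL1*, *JUN*, *JUNB*, *EGR1*, *ATF3* and *IER3*. They were 10 of the 14812 genes that could be named on the arrays, and all 10 listed symbols were found. *DUSP1* was chosen by its higher signal in UM-Cis than in UMSCC1 on these same arrays, so its values are described without a test. The other 9 were listed as relatives of its response with earlier results of these arrays known. Each symbol is represented by its brightest probe set, judged by the mean over the 6 arrays. UM-Cis (3 arrays) is the cisplatin-resistant line raised from UMSCC1 by stepwise exposure to cisplatin that began at 1 μg/mL and ended at 5 μg/mL over about 12 months. UMSCC1 (3 arrays) is its cisplatin-sensitive parent, an established oral squamous cell carcinoma line. Both lines were grown in serum-containing medium, without cisplatin when the RNA was taken, so the comparison holds no acute drug exposure. UM-Cis is 1 resistant line from 1 parent, and nothing states that the 3 arrays of a line were separate cultures. The p-values therefore cover the spread among these arrays alone, and that spread may be technical.

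Immediate-early genes are switched on within minutes of a growth factor, stress or damage signal, without the need for new protein. Timing was not measured here, and not every listed gene need respond this early. The signal runs through the MAP kinases ERK, JNK and p38, which phosphorylate factors already bound at these promoters. The FOS and JUN proteins then pair into the AP-1 transcription factor, EGR1 and ATF3 act as further transcription factors, and DUSP1 and DUSP6 remove the phosphates from the MAP kinases and so end the signal. DUSP1 acts on p38, JNK and ERK in the nucleus, while DUSP6 acts on ERK in the cytoplasm.

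All 10 genes are protein-coding genes of GRCh38.p14. Promoter windows from RefSeq, which span 250 bases before and 50 bases after an annotated start on that build, were found for 8 of them, with 2 windows for *ATF3*. They are shown for *DUSP1* and *JUN*, the pair with the largest differences between the lines, and for *FOS* and *EGR1*, which did not pass the test. Bases in capitals are matches, on either strand, to the cAMP response element (CRE, TGACGTCA), its core (TGACG), the serum response CArG box, the EGR site (GCGNGGGCG) and the TATA box (TATAAA). A full CRE holds a core on each strand, and these overlap it. The AP-1 site was searched as well, in the spelling TGANTCA alone, which had no match in the 9 windows. The longer TGACATCA, present in the *JUN* window and in window 1 of *ATF3*, was not searched and stays in lower case. The windows lie at chr5:172771146-172771445 (minus strand, *DUSP1*), chr1:58783998-58784297 (minus strand, *JUN*), chr14:75278578-75278877 (plus strand, *FOS*) and chr5:138465229-138465528 (plus strand, *EGR1*).
DUSP1 promoter: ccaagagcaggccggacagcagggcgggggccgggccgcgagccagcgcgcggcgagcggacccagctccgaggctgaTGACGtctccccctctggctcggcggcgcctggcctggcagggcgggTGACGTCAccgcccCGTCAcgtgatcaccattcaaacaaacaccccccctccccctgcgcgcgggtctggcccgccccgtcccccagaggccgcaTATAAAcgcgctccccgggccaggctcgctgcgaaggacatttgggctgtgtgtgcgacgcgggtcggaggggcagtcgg
JUN promoter: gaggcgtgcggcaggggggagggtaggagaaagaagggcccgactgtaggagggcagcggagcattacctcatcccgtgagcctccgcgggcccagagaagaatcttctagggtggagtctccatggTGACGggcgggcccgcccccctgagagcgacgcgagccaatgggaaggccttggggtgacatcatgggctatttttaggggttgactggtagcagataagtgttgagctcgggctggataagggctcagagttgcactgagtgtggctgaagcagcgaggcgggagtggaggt
FOS promoter: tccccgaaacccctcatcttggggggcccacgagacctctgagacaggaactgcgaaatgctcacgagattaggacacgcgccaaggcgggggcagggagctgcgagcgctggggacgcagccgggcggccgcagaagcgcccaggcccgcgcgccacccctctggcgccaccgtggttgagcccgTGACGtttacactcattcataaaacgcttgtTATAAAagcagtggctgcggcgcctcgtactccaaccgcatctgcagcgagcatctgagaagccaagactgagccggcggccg
EGR1 promoter: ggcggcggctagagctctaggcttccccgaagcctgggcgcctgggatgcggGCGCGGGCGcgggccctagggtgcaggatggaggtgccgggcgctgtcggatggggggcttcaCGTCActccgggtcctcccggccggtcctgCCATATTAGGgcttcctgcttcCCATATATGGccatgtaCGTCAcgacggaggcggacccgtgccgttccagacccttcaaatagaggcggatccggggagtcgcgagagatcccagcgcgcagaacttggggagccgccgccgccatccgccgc

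The *DUSP1* window was the 1 window of the 9 with a full CRE, which starts at position -125 from the annotated start. It held 4 core matches in all, 2 of them within the full element, and a TATA box at -30. The full element is present in 1.85% and the core in 24.6% of 35116 windows of the same length. *JUN*, *FOS*, *FOSB* and *JUNB* each had 1 core match and *EGR1* had 2, while *DUSP6* and both *ATF3* windows had none. A TATA box was also at -33 in *FOS*, -30 in *FOSB*, -31 in *JUNB* and -230 in window 2 of *ATF3*. *JUN*, *DUSP6* and window 1 of *ATF3* held none. The CArG box, present in 1.29% of all windows, was found only in *EGR1* among the 8 members with a window, at -105 and -83. Sites more than 250 bases before a start were not searched, so a gene without a match may hold one there. *EGR1* also held an EGR site at -198, which 9.43% of all windows have, and no TATA box, which 11.5% have. The AP-1 site in the spelling searched is present in 7.71% of all windows. These matches are letters in a short window and show no binding.

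**Figure D1:**
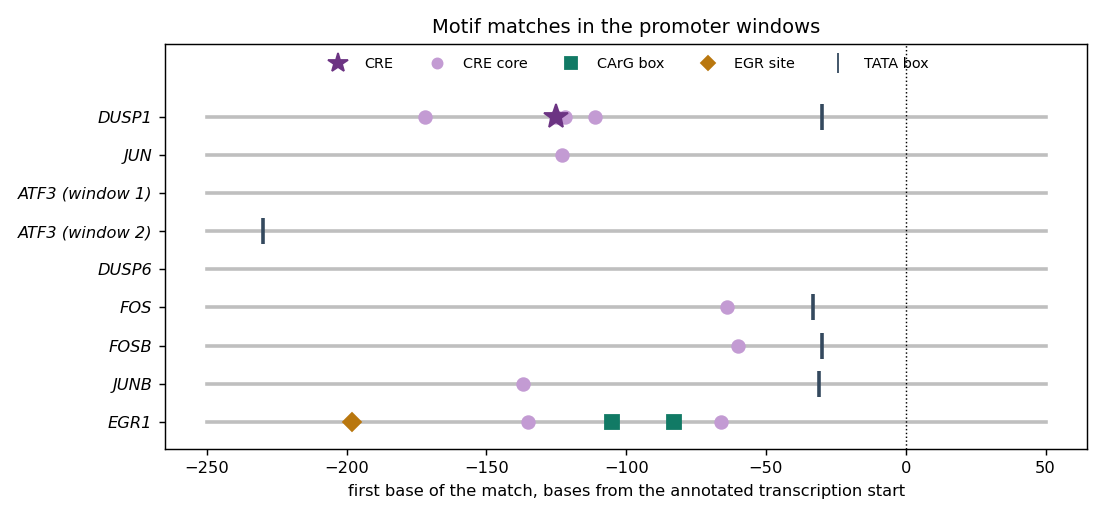
Motif matches in the 9 promoter windows of 8 genes, by distance in bases from the annotated transcription start (dotted line). Genes that were higher in UM-Cis are above those that did not pass the test. *DUSP1* is the only one with a full CRE, at -125, and *EGR1* the only one with CArG boxes, at -105 and -83.

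The *DUSP1* signal was higher in UM-Cis on every array. Its log2 signal was 10.20 on the UM-Cis array whose label has no number, 10.40 on array 1 and 10.40 on array 2, against 7.51, 7.79 and 8.08 on the UMSCC1 arrays with the same labels. The UM-Cis arrays lay close together and the lines did not overlap. The means were 10.34 ± 0.12 in UM-Cis and 7.79 ± 0.29 in UMSCC1 (SD, n = 3 each), a log2 difference of 2.54 or 5.83-fold. Of the 14812 genes, 14 had a larger increase. Between arrays of the same label the difference was 2.70 (no number), 2.61 (array 1) and 2.32 (array 2), and it was 2.47 over the numbered arrays alone. The RNA came from whole cultures, so more *DUSP1* RNA per cell and a larger share of cells with *DUSP1* RNA cannot be told apart.

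**Figure D2:**
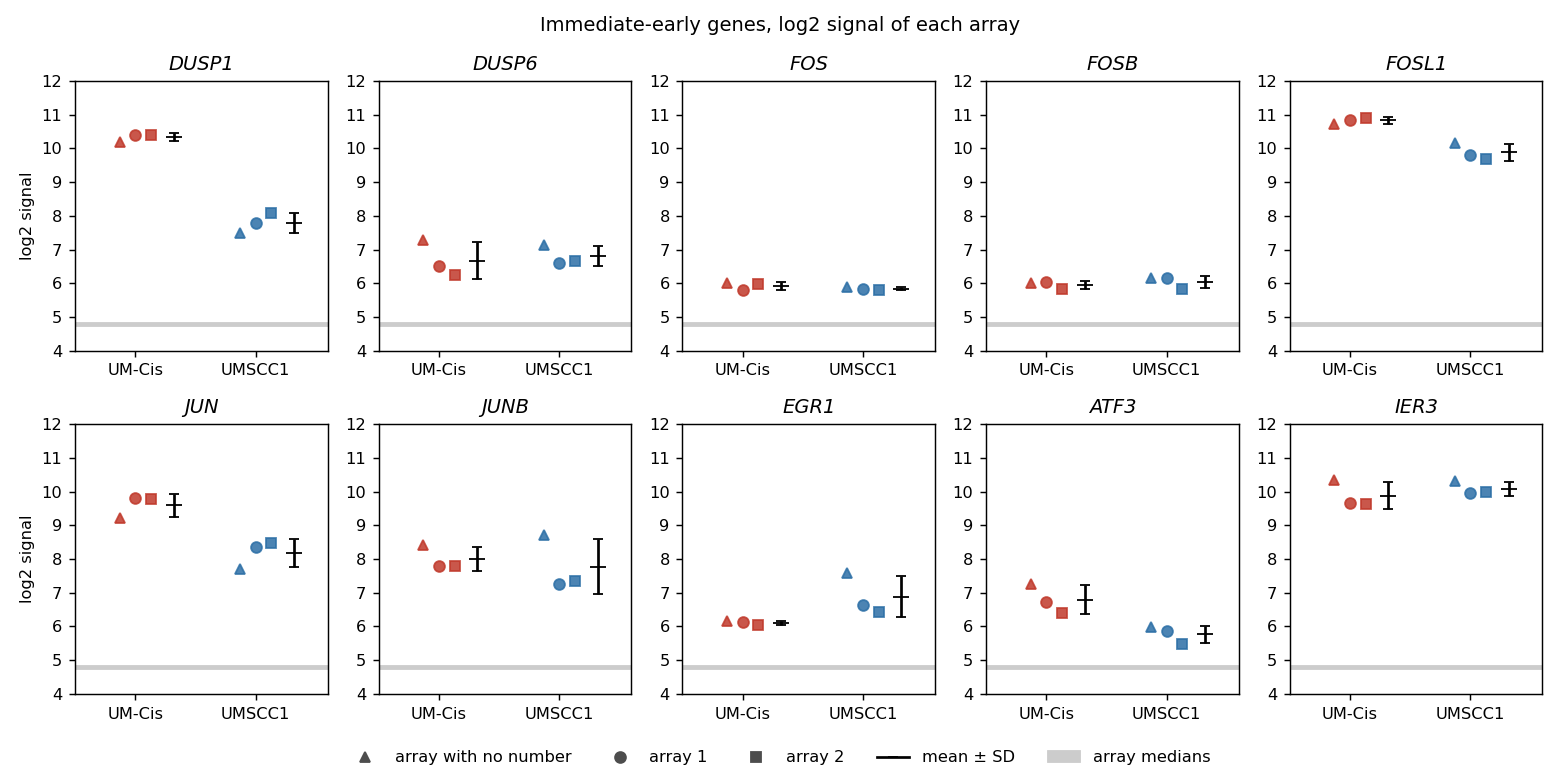
Log2 signal of the 10 genes on each array, with UM-Cis (red) left of UMSCC1 (blue). Symbols mark the array labels, black bars the mean ± SD (n = 3), and the grey band the array medians (4.74 to 4.82). *DUSP1*, *JUN*, *FOSL1* and *ATF3* are higher on every UM-Cis array, *EGR1* is lower on every UM-Cis array, and the other 5 genes overlap.

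Of the other 9 genes, 3 rose in UM-Cis, namely *JUN*, *ATF3* and *FOSL1*, none fell, and 6 did not pass the test (limma, adjusted p under 0.05 over all genes). Among all 14812 genes, 5.91% were called higher and 4.60% lower by the same rule. The median difference of the 9 genes was 0.08, against -0.04 over all genes. At an unadjusted p under 0.05 from limma, 3 of the 9 were higher and 1 was lower, against 12.7% and 12.0% of all genes. With the replicate label as a block, 3 of the 9 were higher and 0 were lower, against 9.79% and 8.40% of all genes. Without overlap of the lines, 3 of the 9 were higher and 1 was lower, against 14.7% and 15.7% of all genes. The unpaired test of the study's methods called none of the 9 in either direction once adjusted, against 2.17% of all genes higher and 1.67% lower. At an unadjusted p under 0.05 it called 3 higher and 0 lower, against 11.0% and 10.6% of all genes.

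*JUN* encodes c-Jun, the AP-1 subunit that JNK phosphorylates. Its log2 signal was 9.20 (no number), 9.81 (array 1) and 9.79 (array 2) in UM-Cis, against 7.72, 8.36 and 8.48 in UMSCC1. Every UM-Cis array was higher, and in both lines the array with no number was the lowest. The log2 difference of *JUN* was 1.42, higher in UM-Cis (standard error 0.25, 2.67-fold, adjusted p = 0.0092 from limma). The difference was 1.49, 1.45 and 1.31 between arrays of the same label, so it was closely alike across labels while the levels themselves moved. The call held whichever of the 6 arrays was left out (adjusted p up to 0.0487).

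*FOSL1* encodes FRA-1, a FOS family partner of c-Jun that is more stable than FOS itself. Its log2 signal was 10.73 (no number), 10.86 (array 1) and 10.92 (array 2) in UM-Cis and 10.17, 9.79 and 9.68 in UMSCC1. The lines did not overlap. *FOSL1* had a difference of 0.95, higher in UM-Cis (standard error 0.16, 1.94-fold, adjusted p = 0.0081 from limma). Its difference was 0.56 between the arrays with no number and 1.07 and 1.23 between the numbered ones, and leaving out any single array kept the call (adjusted p up to 0.0434).

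*ATF3* encodes a stress-induced factor of the ATF/CREB family that pairs with JUN proteins. Its log2 signal was 7.26 (no number), 6.73 (array 1) and 6.39 (array 2) in UM-Cis, against 5.98, 5.85 and 5.48 in UMSCC1. Each UM-Cis array was above each UMSCC1 array, with the array with no number highest in both lines. *ATF3* rose by 1.03 (standard error 0.24, 2.04-fold, adjusted p = 0.029 from limma). It lost the call without UM-Cis replicate 1 (adjusted p = 0.0924), UMSCC1 replicate 1 (adjusted p = 0.0856) or UMSCC1 replicate 2 (adjusted p = 0.0992), and with all 44629 probe sets adjusted together (adjusted p = 0.0633).

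*FOS* and *FOSB*, the classical FOS family members that pair with JUN proteins and decay fast after a stimulus, did not follow *FOSL1*. *FOS* was at 6.01, 5.79 and 5.97 in UM-Cis and at 5.89, 5.84 and 5.80 in UMSCC1 (no number, array 1, array 2). The lines overlapped, the difference was 0.08 (95% interval -0.21 to 0.37), and it did not pass (adjusted p = 0.76 from limma). *FOSB* was at 6.00, 6.02 and 5.82 in UM-Cis and at 6.15, 6.14 and 5.83 in UMSCC1. Here too the lines overlapped, with a difference of -0.09 (95% interval -0.43 to 0.24, adjusted p = 0.75 from limma). The annotation gives each a second, dimmer probe set, which differed by -0.28 (*FOS*, adjusted p = 0.42 over all probe sets with limma) and by -0.37 (*FOSB*, adjusted p = 0.49). The strand that these read was not checked, so they may not measure the RNA of the gene.

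*JUNB*, another AP-1 subunit, had opposite differences by array label. Its log2 signal was 8.41 (no number), 7.79 (array 1) and 7.81 (array 2) in UM-Cis, against 8.71, 7.27 and 7.35 in UMSCC1. The arrays with no number differed by -0.30 and the numbered arrays by 0.52 and 0.46. Over all 6 arrays the difference was 0.23 (95% interval -0.63 to 1.09, adjusted p = 0.77 from limma). Over arrays 1 and 2 of each line alone it was 0.49 (adjusted p = 0.0328 from limma). That smaller fit called 1387 of all genes higher and 1301 lower, against 876 and 681 with all 6 arrays.

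*EGR1*, a zinc finger factor induced by ERK, was lower on every UM-Cis array and did not pass. Its log2 signal was 6.16 (no number), 6.14 (array 1) and 6.05 (array 2) in UM-Cis, against 7.57, 6.65 and 6.43 in UMSCC1. The spread was 0.06 in UM-Cis and 0.61 in UMSCC1 (SD, n = 3 each). The difference was -0.77 (95% interval -1.39 to -0.14, adjusted p = 0.12 from limma, or 0.057 once the replicate label entered as a block). It was -1.41 between the arrays with no number and -0.51 and -0.38 between the numbered ones. A second probe set of *EGR1*, with a mean signal of 4.29 under the array medians, differed by -0.11 (adjusted p = 0.85 over all probe sets with limma). The strand it reads was not checked either.

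*DUSP6*, the ERK phosphatase, was at 7.28 (no number), 6.50 (array 1) and 6.24 (array 2) in UM-Cis and at 7.14, 6.60 and 6.65 in UMSCC1. The lines overlapped, with a difference of -0.13 (95% interval -0.76 to 0.50, adjusted p = 0.83 from limma). *IER3*, an early-response regulator of cell survival, was at 10.34, 9.67 and 9.62 in UM-Cis and at 10.32, 9.95 and 9.98 in UMSCC1. Its difference was -0.21 (95% interval -0.70 to 0.29, adjusted p = 0.62 from limma). The annotation gives *IER3* 11 probe sets, of which 4 held the same brightest values, 5 held 1 lower set of values with a difference of -0.32, and 2 others differed by -0.21 each. The signals of these 11 are therefore not independent readings, and the strand that each reads was not checked.

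**Figure D3:**
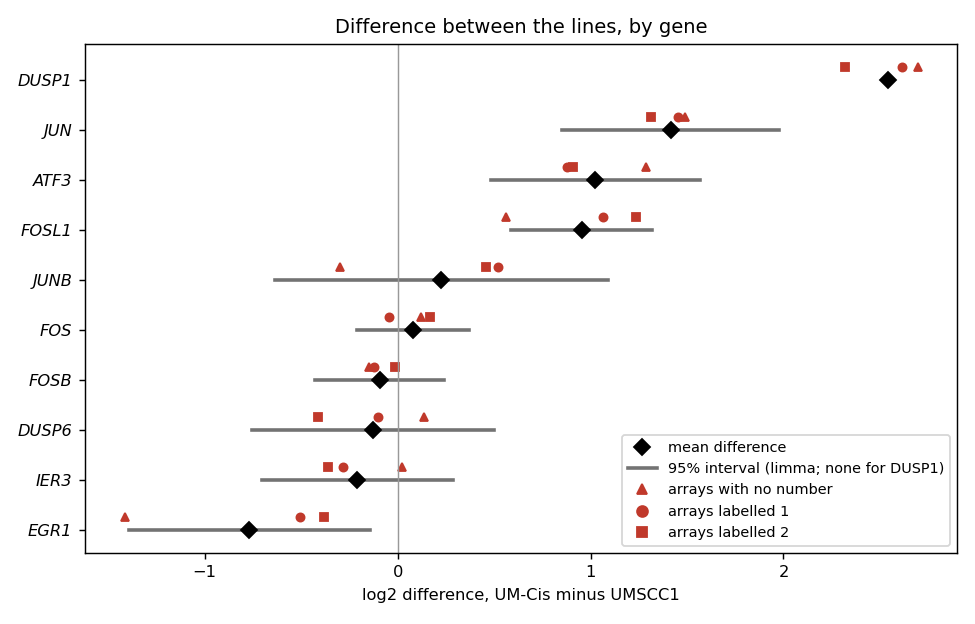
Log2 difference of each gene, UM-Cis minus UMSCC1. Black diamonds are the mean differences over 3 arrays a line, grey bars the 95% intervals from limma (none is drawn for *DUSP1*, which was not tested), and red symbols the differences between arrays of the same label. *DUSP1* is at 2.54, *JUN*, *ATF3* and *FOSL1* are at 1.42, 1.03 and 0.95 with intervals above 0, and *JUNB*, *FOS*, *DUSP6* and *IER3* change sign with the array label.

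*JUNB*, *DUSP6* and *IER3* moved more with the array label, averaged over the lines, than between the lines. So did *FOS* (0.10 against 0.08) and *FOSB* (0.12 against -0.09), by small amounts. The array with no number was above the mean of arrays 1 and 2 in both lines for 7 of the 10 genes and below it in both for *DUSP1* and *JUN*, while *FOSL1* went opposite ways. Over all genes, 37.0% were higher and 28.1% were lower on that array in both lines. The shift was 0.61 in UM-Cis and 1.40 in UMSCC1 for *JUNB*, 0.91 and 0.51 for *DUSP6*, and 0.69 and 0.35 for *IER3*. It was 0.70 and 0.31 for *ATF3*, but 0.07 and 1.04 for *EGR1*. For *JUN* it was -0.60 and -0.70, and for *DUSP1* -0.20 and -0.43. Averaged over the lines, 221 of the 14812 genes moved more with the label than *JUNB* in size, 721 more than *DUSP6* and 954 more than *JUN*. The labels do not say what sets these arrays apart, and what part this has in each difference was not tested.

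**Figure D4:**
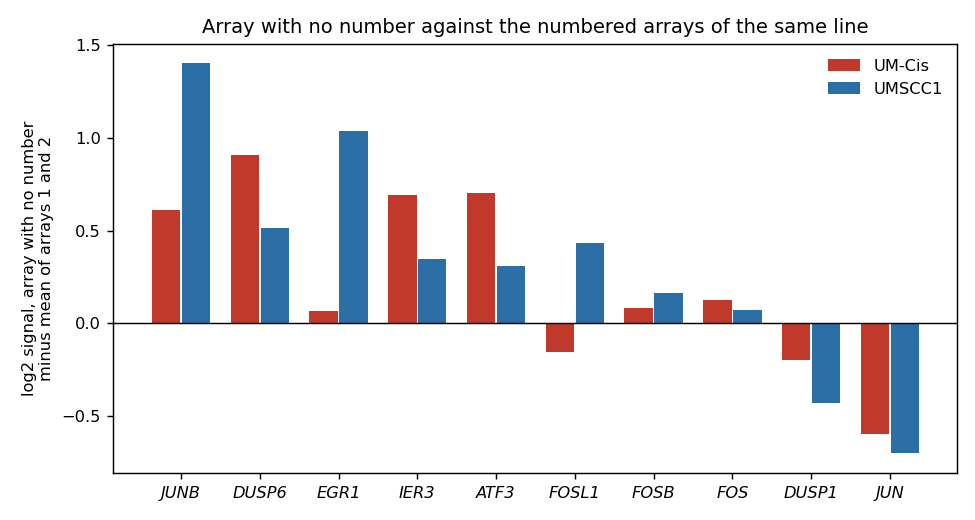
Log2 signal of the array with no number minus the mean of arrays 1 and 2 of the same line, for UM-Cis (red) and UMSCC1 (blue). *JUNB* is at 0.61 and 1.40, *DUSP6* at 0.91 and 0.51, and *JUN* at -0.60 and -0.70.

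Of 21 other genes of the *DUSP* family measured, *STYX* among them, 2 rose, none fell and 19 did not pass, with a median difference of -0.01. The shares to set beside this and the following lists are the 5.91% of all genes called higher and the 4.60% called lower. With the replicate label as a block they are 9.79% and 8.40%. *DUSP14*, a small phosphatase of MAP kinases, was at 10.53, 10.08 and 10.15 in UM-Cis and at 9.06, 8.76 and 8.73 in UMSCC1, and rose by 1.41 (adjusted p = 0.0019 from limma). *DUSP3*, known as VHR, rose by 0.90 (adjusted p = 0.0085). Both passed in each fit without 1 array. With the replicate label as a block, *DUSP9* at -0.93 and *DUSP22* at -0.44 were lower as well (adjusted p = 0.0076 and 0.035 from limma, and 0.098 and 0.099 without the block).

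Of 15 measured bZIP factors related to AP-1, 2 rose, none fell and 13 did not pass, with a median difference of -0.02. *MAFF*, a small MAF protein, rose by 0.91 (adjusted p = 0.015 from limma) and *CREB3*, a membrane-bound CREB factor, by 0.64 (adjusted p = 0.017). *MAFF* lost the call without UM-Cis replicate 1 (adjusted p = 0.0591) or UMSCC1 replicate 2 (0.0560), and *CREB3* without UM-Cis replicate 1 (0.0745) or UMSCC1 replicate 1 (0.0770) or 2 (0.0522), and with equal control genes (0.0504). With equal control genes *DDIT3*, which encodes the stress factor CHOP and also stands in the ATF4 list, came past the test at a difference of 0.74 before that shift (adjusted p = 0.033, and 0.15 without it).

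Of 24 other immediate-early genes measured, 4 rose, none fell and 20 did not pass, with a median difference of 0.12. *CCN2*, a matricellular protein gene that responds to serum and to YAP, was at 9.40, 9.66 and 9.43 in UM-Cis and at 7.78, 7.99 and 8.05 in UMSCC1. The lines did not overlap, and *CCN2* rose by 1.56 (adjusted p = 0.00085 from limma, but 0.0616 with the mean of its probe sets). *GEM*, a small GTPase gene of the RGK family, was at 6.14, 6.33 and 6.04 in UM-Cis and at 4.62, 5.07 and 4.52 in UMSCC1, and rose by 1.44 (adjusted p = 0.0022). The *GEM* mean in UMSCC1, 4.74, was no higher than the array medians. *IER5*, an early-response regulator, rose by 0.78 (adjusted p = 0.0065), and these 3 genes passed in each fit without 1 array. *KLF10*, a TGF-beta-induced zinc finger gene, was at 8.95, 8.81 and 8.92 in UM-Cis and at 8.53, 7.38 and 7.24 in UMSCC1, and rose by 1.18 (adjusted p = 0.049). It lost the call without any 1 array other than the UMSCC1 array with no number (adjusted p from 0.0957 to 0.17). With the replicate label as a block, *PTGS2* at -0.66 and *HBEGF* at -0.62 were lower (adjusted p = 0.021 and 0.013 from limma, and 0.057 and 0.11 without the block).

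The MAP kinases and the kinases above them went both ways. Of 34 measured, 4 rose, 3 fell and 27 did not pass, with a median difference of -0.03. On the p38 branch, *MAPK13*, which encodes p38 delta, was at 6.64, 6.35 and 6.08 in UM-Cis and at 7.93, 7.66 and 7.78 in UMSCC1, and fell by 1.43 (adjusted p = 0.0019 from limma). *MAP2K6*, a p38 kinase, had a difference of -1.27 (adjusted p = 0.0046), with a mean signal in both lines under the array medians, while *MAP2K3*, its relative, rose by 0.54 (adjusted p = 0.037). *MAPK9*, which encodes JNK2, rose by 0.73 (adjusted p = 0.013), *MAP3K2* by 0.73 (0.026) and *ARAF*, a RAF kinase of the ERK branch, by 0.64 (0.022). *MAP3K5*, which encodes the stress kinase ASK1 and was named after its value was seen, fell by 0.91 (adjusted p = 0.0495). *MAPK13* and *MAP2K6* passed in each fit without 1 array. *MAPK9* lost the call without UM-Cis replicate 1 or 2 or UMSCC1 replicate 2, *ARAF* without any numbered array, *MAP3K2* without any array but the UMSCC1 one with no number, *MAP3K5* without any but the UM-Cis one with no number, and *MAP2K3* without any of the 6 (adjusted p from 0.0507 to 0.145). With equal control genes, 2 of the 34 rose (*MAPK9* and *MAP3K2*) and 1 fell (*MAPK13*), against 787 and 166 of all 14812 genes. *MAP2K6* was then just outside (adjusted p = 0.0520 from limma). With the block *MAP2K5*, the kinase of ERK5, was higher as well at 0.47 (adjusted p = 0.044 from limma, and 0.11 without the block).

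Of 14 measured genes that ERK signalling induces or that feed back on it, 4 rose, 1 fell and 9 did not pass, with a median difference of 0.15. *EPHA2*, a receptor kinase gene, rose by 0.97 (adjusted p = 0.0024 from limma), and the ETS factor genes *ETV4* and *ETV1* by 1.10 (0.0071) and 1.15 (0.023). The *ETV1* mean in UMSCC1, 4.53, lay under the array medians. The Sprouty genes, inhibitors of receptor kinase signalling, went opposite ways. *SPRY4* was at 6.63, 5.99 and 6.01 in UM-Cis and at 5.46, 5.04 and 5.46 in UMSCC1, and rose by 0.89 (adjusted p = 0.033). *SPRY2* was at 6.27, 6.16 and 5.63 in UM-Cis and at 6.60, 6.90 and 7.15 in UMSCC1, and fell by 0.86 (adjusted p = 0.038). *EPHA2* and *ETV4* passed in each fit without 1 array, whereas *ETV1*, *SPRY4* and *SPRY2* each lost the call in 4 of 6, *SPRY4* and *SPRY2* in the 4 without a numbered array and *ETV1* in the 3 without a UMSCC1 array and without UM-Cis replicate 2 (adjusted p up to 0.124). With equal control genes *SPRY2* lost the call (adjusted p = 0.21) and the ETS factor gene *ETV5* gained one (adjusted p = 0.043, and 0.074 without the shift). With the block *LIF*, a cytokine gene, was lower at -0.44 (adjusted p = 0.038 from limma, and 0.23 without the block). Then 2 of the 14 were lower, against 8.40% of all genes. *DUSP1* is also a known target of glucocorticoids. Of 19 listed glucocorticoid-induced genes 14 were measured, *TSC22D3* and *PDK4* not among them. None of the 14 passed in either direction, with a median difference of 0.17. *FKBP5* and *ZBTB16* had the smallest adjusted p-values, at -0.56 (adjusted p = 0.086 from limma, 0.0365 with the block) and -0.51 (0.11). With numbered arrays only, which gave more calls over all genes, *MT1X* was higher and *FKBP5* lower (adjusted p = 0.0014 and 0.033 from limma). Any part of glucocorticoids in the *DUSP1* difference was not tested.

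Of 11 measured genes of growth arrest, stress and the ATF4 response, 2 rose, 2 fell and 7 did not pass, with a median difference of -0.12. *PMAIP1*, which encodes the BH3-only protein NOXA, rose by 1.10 (adjusted p = 0.019 from limma) and *HMOX1*, which encodes haem oxygenase, by 0.48 (0.042). *DDIT4*, an inhibitor of mTORC1, fell by 2.18 (adjusted p = 0.0010) and *VEGFA* by 0.97 (0.0070). *HMOX1* lost the call whichever array was left out (adjusted p up to 0.145). *PMAIP1* lost it without UM-Cis replicate 2 (0.0513) or UMSCC1 replicate 1 (0.0828) or 2 (0.0727). With equal control genes *HMOX1* and *VEGFA* did not pass (adjusted p = 0.107 and 0.0824). With the block *SESN2*, a sestrin gene, was higher at 0.60 (adjusted p = 0.039 from limma, and 0.084 without the block).

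**Figure D5:**
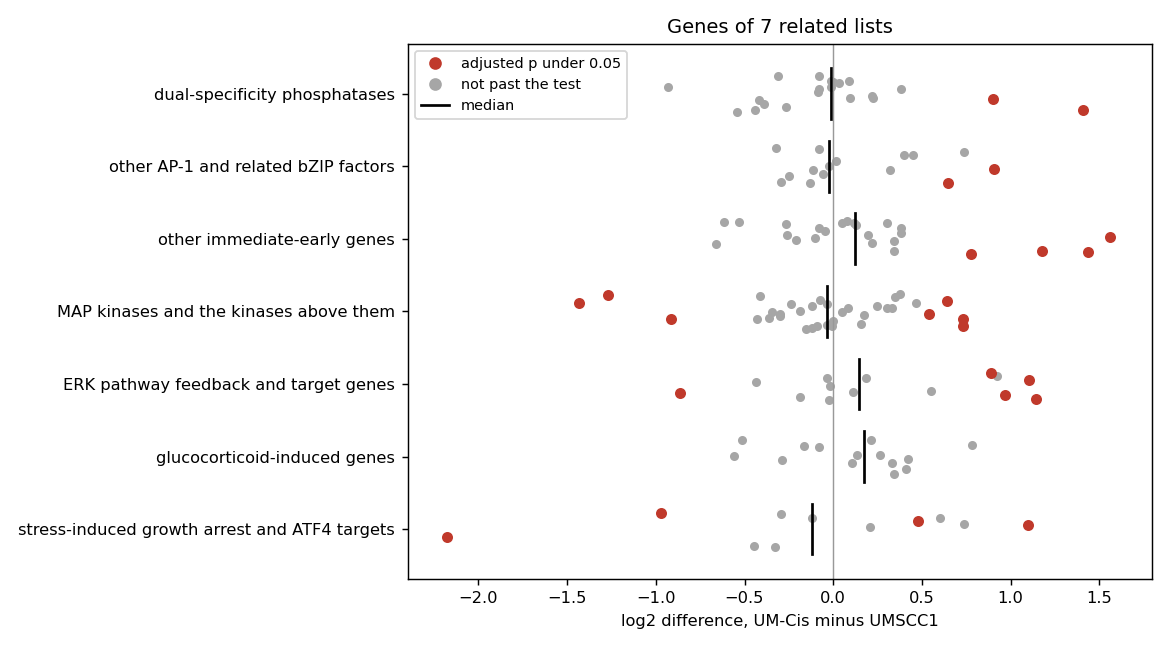
Log2 differences (UM-Cis minus UMSCC1) of the measured genes of 7 lists related to the immediate-early response, the 10 main genes left out. Each point is a gene, red where the adjusted p is under 0.05 from limma, and black lines are the medians, which lie between -0.12 and 0.17. The MAP kinase list holds 4 genes that rose and 3 that fell, and no glucocorticoid-induced gene is red.

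The genes with the profile most like *DUSP1* were found by the root mean squared difference of log2 signals over the 6 arrays, each gene centred on its own mean. They were the zinc finger genes *ZNF45* (0.14) and *ZNF607* (0.18), *CLTRN* (0.19), *PLPP3* (0.21), a lipid phosphatase, *TFPI* (0.21), a coagulation inhibitor, and *SUN3* (0.22). Their log2 differences ran from 2.25 for *TFPI* to 2.63 for *CLTRN* and are given without a test, since likeness to *DUSP1* chose them. No listed immediate-early gene was among the 6, which the size of the differences settles. The largest among those genes other than *DUSP1* was 1.56, for *CCN2*, too far from 2.54 for a near profile. Their absence therefore does not show whether they share the direction or the label pattern of *DUSP1*.

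Over the whole series, UM-Cis had 876 genes called higher and 681 called lower out of 14812. Of 15 listed control genes 6 were measured, namely *GAPDH*, *B2M*, *HPRT1*, *TBP*, *PPIA* and *PGK1*. Their differences ran from -0.53 (*HPRT1*) to 0.56 (*B2M*), so they did not move together. Aligning the arrays on the median of these 6 added 0.24 to every difference and gave 787 genes higher and 166 lower. The share of calls that were higher was then 82.6%, against 56.3%. Under that shift *JUN*, *FOSL1* and *ATF3* passed as before, *DUSP1* was at 2.78, *EGR1* stayed under 0, and *DUSP6*, *FOSB* and *IER3*, none of them past the test, changed sign. Of 8 measured squamous epithelial markers 5 lay above the array medians in both lines, among them *EPCAM* and *SFN*, and none of the 8 rose and 2 fell. *KRT13* averaged 4.20 in UM-Cis and 6.24 in UMSCC1, and *KRT5* 4.68 and 6.61. Both UM-Cis means lay under the array medians, but *KRT5* was at 5.54 on UM-Cis array 2. With the block *KRT14* was lower as well, at -0.92 (adjusted p = 0.0080 from limma, and 0.059 without the block). Of the 10 measured markers of fibroblasts, endothelial cells, leukocytes and melanocytes, 3 lay above the array medians in both lines, *THY1*, *PMEL* and *CD68*. *CD68*, a lysosomal protein gene, rose by 1.41 (adjusted p = 0.011 from limma, 0.0547 without UMSCC1 replicate 1), and *CD14* fell by 0.53 (0.049, lost in all 6 fits without 1 array, with adjusted p from 0.0539 to 0.161). Their part in the results above was not tested.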

How the data were processed

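Total RNA of 3 UM-Cis and 3 UMSCC1 samples was measured on 6 arrays of the Affymetrix Human Gene 2.0 ST type. The authors deposited log2 signals of 44629 probe sets, normalized between arrays (quantile normalization in their text, RMA in the submitters' processing notes). For the RMA version and any filter, the sources used here give nothing. Array medians were 4.74 to 4.82. No detection call was used, so signal over background is unknown, and precision is limited by the number of arrays.

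A platform annotation named 15835 probe sets by 1 symbol each and left 28794 unnamed here. The strand that each reads was not checked, so a gene's dimmer probe sets may not measure its own RNA. They enter the mean of probe sets all the same. All 15835 identifiers were found in a RefSeq gene table of GRCh38.p14. The brightest probe set of each of 14812 genes was compared by limma 3.58.1 in R 4.3.3 (lmFit, eBayes, two-sided) with Benjamini-Hochberg adjustment over all genes and a threshold of 0.05. The step was tested on simulated data. Promoter windows were searched in Python 3.11.15, and figures drawn with matplotlib 3.10.9.

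The genes, lists and tests were chosen with earlier results of these data known. Genes were named by a rule: every member, in each list the genes past the test (up to 6) or the 2 with the smallest adjusted p, and the 6 profiles nearest to *DUSP1*. Listed genes called only with the block or only with equal control genes were named after their values were seen. Deviations from the line means correlated by 0.51 (no number), 0.24 (1) and 0.36 (2) between arrays of the same label, and on this basis arrays of equal label were treated as pairs. Across labels the numbered arrays correlated by 0.27 (UM-Cis 1 with UMSCC1 2) and 0.23 (2 with 1), so this sets the array with no number apart but not 1 from 2. No source states a shared batch. Alternatives were the methods' unpaired test, a trended and robust prior, cyclic loess, equal control genes, leaving out dim probe sets and the mean of probe sets. Others were all probe sets, 1 array left out, numbered arrays alone and the replicate block. The 2-fold rule took the study's cut-offs, a 2-fold difference and an unadjusted p under 0.05, but with the p from limma and on the named genes alone.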

Additional observations from a re-analysis of the deposited data

How the results depend on the processing

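Most values for single genes kept their direction and side of the threshold: 120 of 135 did, 7 reversed, 7 were no longer past it and 1 came past it. The reversals were in genes that did not pass: *DUSP6* at 0.11, *FOSB* at 0.14 and *IER3* at 0.0282 with equal control genes, *FOS* at -0.10 with the mean of its probe sets, and, without 1 array, *DUSP6* from -0.43 to 0.0887 and *JUNB* from -0.0265 to 0.69. *DUSP1* was at 2.78 with equal control genes, against 2.54. Over all genes, the counts higher and lower were 876 and 681, 322 and 248 by the methods' t-test, 560 and 415 with all probe sets, 1387 and 1301 with numbered arrays only, 1450 and 1244 with the replicate block, and 362 and 252 by the 2-fold rule. The lower count was 166 with equal control genes. Leaving out 1 array gave 433 to 848 higher and 324 to 738 lower, with the counts over 1.5 times smaller without any of the 4 numbered arrays. Of 129 pathway genes 18 rose and 6 fell, against 5.91% and 4.60% of all genes. By the methods' t-test 8 rose and 2 fell, against 2.17% and 1.67% of all genes. By the 2-fold rule 7 rose and 3 fell, against 362 and 252 of all 14812 genes. With all probe sets 11 rose. The number that fell was 2 with equal control genes, 18 with numbered arrays only and 12 with the replicate block. Leaving out 1 array gave 7 to 15 that rose and 4 to 11 that fell. Of the 9 immediate-early genes, 0 rose by the methods' t-test after adjustment, and the replicate block changed none of their calls. The cause of these changes was not tested. With 3 arrays a line, *IER5* passed at 0.78 (standard error 0.12) and *EGR1* did not at -0.77 (standard error 0.27), and no detection call shows which dim signals exceed background.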
